A study of Arabidopsis thaliana with 8 samples.

Results

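Transcripts of the plastid genome were followed in roots and shoots of Arabidopsis thaliana. On the ATH1 array 99 probe sets, in 2 runs of consecutive numbers, were taken as the block of the plastid genome. Of these, 2 are annotated to nuclear loci and were dropped. The remaining 97 were chosen by this numbering alone, with no use of their signals, out of 22746 probe sets that are not controls. A plastid gene record backs 77 of the 97, and these 77 are the members described here. They carry 76 gene names, since rps12 has 2 probe sets. For 69 members the probe table lists 1 gene, and for 8 it lists both copies of a gene that the genome carries in duplicate (rps12, rpl2, rpl23, ycf2, ndhB, rps7 and ycf1).

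The plants were 10-day-old wild-type Col-0 seedlings from liquid culture under constant light. They received 250 µM potassium nitrate or 250 µM potassium chloride (KCl) for 20 min, and roots and shoots were taken separately. This gave 4 groups of 2 arrays each, namely roots in nitrate, roots in KCl, shoots in nitrate and shoots in KCl, with replicate numbers 1 and 2 in every group. What the number stands for is not stated in the labels, nor is it stated that the 2 samples of a group were cultured separately. The p-values therefore reflect the spread between these samples alone, part of which may be technical, and the number of arrays limits the precision.

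Plastids keep a small genome of their own, a remnant of a cyanobacterial one. It encodes core subunits of the photosynthetic complexes, which assemble with many subunits made in the nucleus, and part of the plastid's own gene expression machinery. Many of its genes are transcribed together as long precursors that are then cut and trimmed, so neighbouring members can share a transcript and are not independent of one another. The encoded RNAs are abundant in the chloroplasts of green leaf cells, while root cells hold mostly small, non-green plastids. Most plastid RNAs carry no lasting poly(A) tail, and the labelling protocol named for these arrays starts from poly(A). What share of a signal came from untailed RNA was not tested.

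By function the 77 members fell into 5 subunits of photosystem I, 15 of photosystem II, 6 of the cytochrome b6f complex, 6 of the ATP synthase, the large subunit of Rubisco, 11 subunits of the NDH complex, 4 of the plastid RNA polymerase, 20 probe sets for ribosomal proteins and 9 others. The label did not hold for all of the block. Of the other 20 probe sets, 6 are named in the probe table as nad9, rps3/rpl16, ccb206, cox2, ccb452 and nad6, which are names of mitochondrial genes, and none of these 6 passed the test between organs in either treatment. The table does not list the last 14, of which 2 were lower in roots in KCl and 2 in nitrate by the test. Of all probe sets 12.7% were called lower in each treatment. These 20 stay out of the counts that follow.

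Values are the authors' signals on a linear scale with arbitrary units, and differences were tested as log2(signal + 16), which understates changes of low signals. The summed signal of the 77 members was 11407 and 8207 in roots in nitrate and 14223 and 7208 in roots in KCl (arrays 2 and 1), against 48652 and 38205 in shoots in nitrate and 51573 and 41990 in shoots in KCl (arrays 2 and 1). Every root array thus lay below every shoot array in this sum, and every array numbered 2 lay above its partner numbered 1. Between 22 and 37 members had a signal under 32 on the root arrays, where background weighs most, and between 7 and 10 on the shoot arrays. No detection calls were used. The RNA came from whole organs, so fewer plastids or green cells and less RNA per plastid cannot be told apart.

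**Figure D1:**
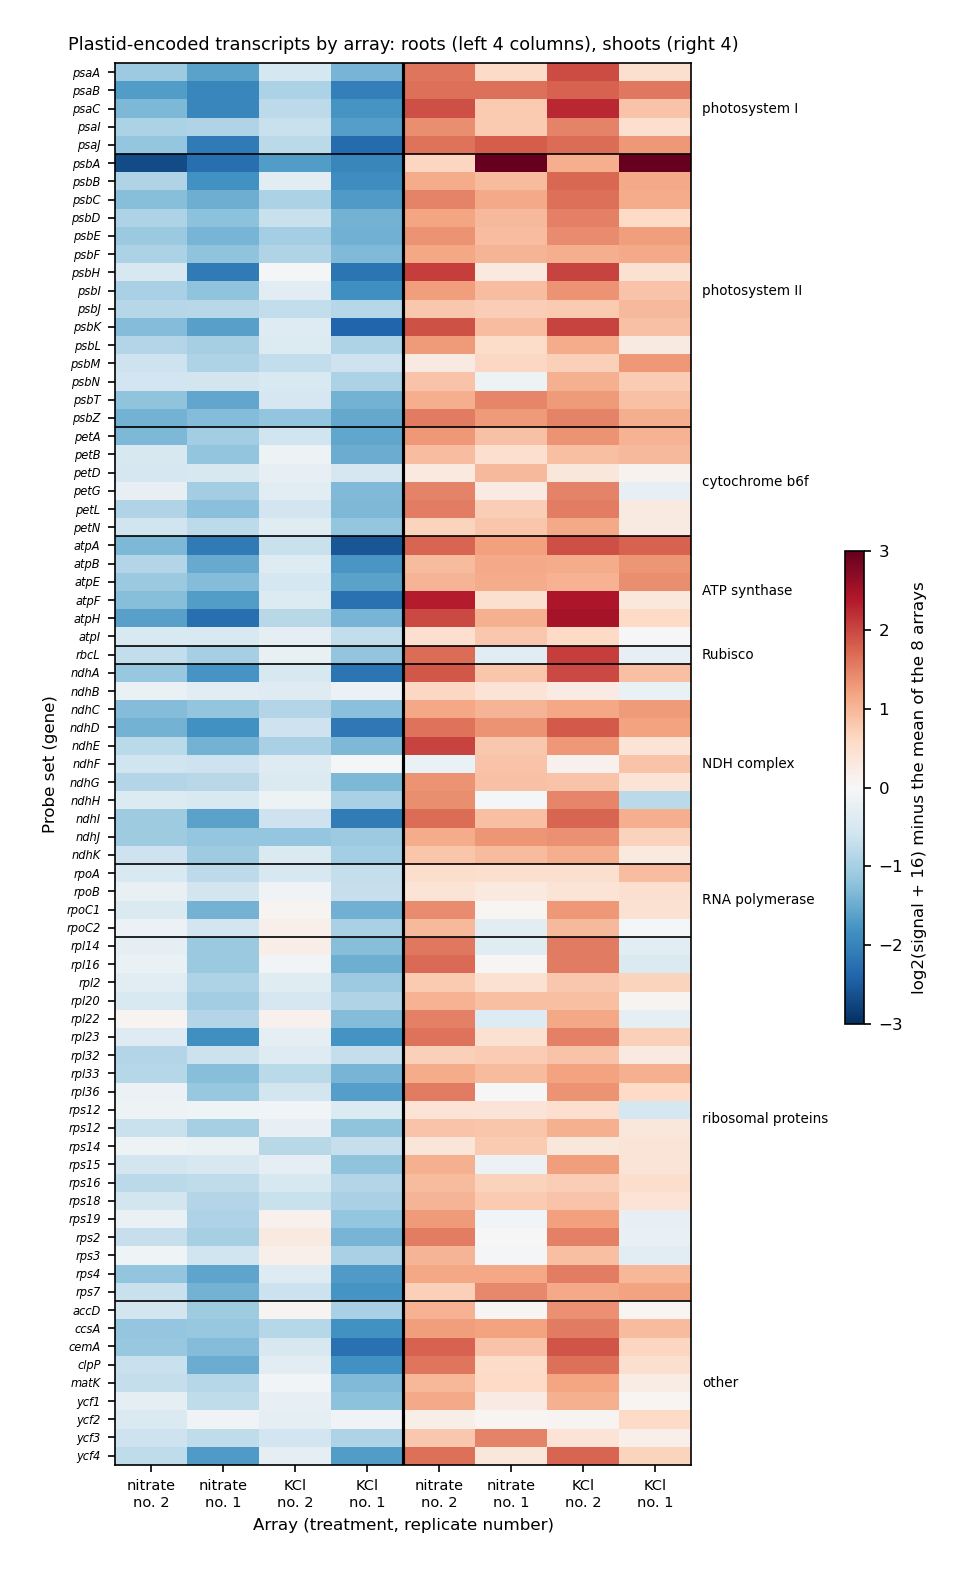
Each row is 1 of the 77 probe sets, grouped by function, and each column 1 array; colour shows log2(signal + 16) minus the mean of the 8 arrays, and saturates at 3 on either side. The 4 root columns are blue and the 4 shoot columns red for most rows, the columns numbered 2 are shifted towards red for many rows, and psbA in shoots runs the other way, darkest on the arrays numbered 1.

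Roots were compared with shoots within each treatment. All 77 members had a lower mean in roots, both in nitrate and in KCl. In nitrate 56 members were lower in roots by the test, where 12.7% of all probe sets were called lower, and in KCl it was 55, where 12.7% of all probe sets were called lower as well. None was higher, where 11.9% of all probe sets in nitrate and 12.1% in KCl were. The median log2 difference over the members was -1.86 in nitrate and -1.77 in KCl, beside 0.01 over all probe sets in each. For 62 of the 77 members all 4 root arrays lay below all 4 shoot arrays, a pattern that 18.1% of all probe sets showed, and for none did all lie above, as they did for 19.6% of all probe sets. As a share of the mean shoot signal, the mean root signal had a median of 20.2% over the members and ran from 2.02% to 55.2%.

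All 5 members of photosystem I, the complex that passes electrons on to ferredoxin, were lower in roots in both treatments. Their median log2 difference was -3.01 in nitrate and -2.84 in KCl. For psaB, which encodes one of the paired reaction-centre proteins, the signals in roots were 86.3 and 68.9 in nitrate and 155 and 62.8 in KCl (arrays 2 and 1), against 1012 and 1013 in nitrate and 1108 and 971 in KCl in shoots (arrays 2 and 1). Shoot arrays were nearly level for this gene while root arrays spread, and the organs were far apart. The log2 difference was -3.46 ± 0.32 in nitrate and -3.18 ± 0.32 in KCl (SE; limma, adjusted p = 0.000183 and 0.000281). Next was the small subunit gene psaJ, with root signals of 170.3 and 79.7 in nitrate and 221 and 67.9 in KCl (arrays 2 and 1), against 1271 and 1445 in nitrate and 1308 and 1012 in KCl in shoots (arrays 2 and 1). It was lower by a similar amount, with log2 differences of -3.36 ± 0.48 and -3.05 ± 0.48 (SE; limma, adjusted p = 0.00159 and 0.00263 in nitrate and KCl). For psaC, whose protein holds the terminal iron-sulfur centres, root signals were 16.8 and 5.41 in nitrate and 32.3 and 8.18 in KCl (arrays 2 and 1), against 299 and 128 in nitrate and 381 and 134 in KCl in shoots (arrays 2 and 1). Its root signals were all low, and its log2 difference was -3.01 ± 0.57 in nitrate and -2.84 ± 0.57 in KCl (SE; limma, adjusted p = 0.00655 and 0.00859).

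Photosystem II, the complex that oxidises water, had 13 of its 15 members lower in roots in nitrate and 14 in KCl, with medians of -2.38 and -2.23. The largest difference of all 77 members was that of psbA, which encodes D1, the reaction-centre protein that light damages and that is constantly replaced. Its root signals were 10.9 and 19.7 in nitrate and 37.8 and 28.1 in KCl (arrays 2 and 1), against 254 and 1726 in nitrate and 351 and 1878 in KCl in shoots (arrays 2 and 1). The lowest shoot array was still well above the highest root array, although the shoot arrays differed widely among themselves. The log2 difference was -4.47 ± 0.93 in nitrate and -4.10 ± 0.93 in KCl (SE; limma, adjusted p = 0.0101 and 0.015). That rank rests on the arrays numbered 1: within a number the difference was -3.33 (number 2) and -5.61 (number 1) in nitrate, and -2.77 (number 2) and -5.42 (number 1) in KCl, and at number 2 the lowest members were atpF at -3.63 in nitrate and atpH at -3.33 in KCl. Root signals of psbK, for another small subunit, were 135 and 105 in nitrate and 269 and 55.7 in KCl (arrays 2 and 1), against 1391 and 689.7 in nitrate and 1497 and 671 in KCl in shoots (arrays 2 and 1). Both organs spread by number here without overlapping, and psbK had log2 differences of -2.89 ± 0.66 in nitrate and -2.83 ± 0.66 in KCl (SE; limma, adjusted p = 0.0146 and 0.0161). In contrast to psbA, the genes psbE and psbF for the subunits of its cytochrome were tight: psbF had signals of 513 and 423 in nitrate and 525 and 388 in KCl in roots (arrays 2 and 1), against 2267 and 2041 in nitrate and 2137 and 2208 in KCl in shoots (arrays 2 and 1). The log2 difference of psbF was -2.17 ± 0.20 in nitrate and -2.23 ± 0.20 in KCl (SE; limma, adjusted p = 0.00016 and 0.000145).

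The photosystem II gene psbH, for a small phosphorylated subunit, did not pass in either treatment in the fit of the 4 groups, which has no number term. Its root signals were 178 and 46.3 in nitrate and 242 and 43.4 in KCl (arrays 2 and 1), against 1115 and 314 in nitrate and 1080.4 and 354 in KCl in shoots (arrays 2 and 1). Roots and shoots did not overlap, but the arrays of a group differed several-fold. The log2 difference was -2.47 ± 0.92 in nitrate and -2.36 ± 0.92 in KCl (SE; limma, adjusted p = 0.0975 and 0.109). Within the arrays of a single number it was -2.54 (number 2) and -2.41 (number 1) in nitrate, and -2.09 (number 2) and -2.64 (number 1) in KCl.

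The cytochrome b6f complex, which links the photosystems, had 5 of 6 members lower in roots in nitrate and 4 in KCl, with medians of -1.52 and -1.61. The gene of cytochrome f, petA, had root signals of 119.7 and 153 in nitrate and 213 and 102 in KCl (arrays 2 and 1), against 835 and 627 in nitrate and 876 and 695 in KCl in shoots (arrays 2 and 1). Its log2 difference was -2.29 ± 0.31 in nitrate and -2.28 ± 0.31 in KCl (SE; limma, adjusted p = 0.00128 and 0.00132), the largest of the complex in both treatments. The small subunit gene petL had root signals of 25.9 and 17.1 in nitrate and 37.0 and 15.3 in KCl (arrays 2 and 1), against 212 and 116 in nitrate and 214 and 78.7 in KCl in shoots (arrays 2 and 1). Its root signals were low and clear of the shoot signals, with log2 differences of -2.22 ± 0.47 and -1.86 ± 0.47 (SE; limma, adjusted p = 0.0106 and 0.0231 in nitrate and KCl). Another small subunit gene, petG, did not pass, with adjusted p = 0.158 and 0.168 by limma.

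All 6 members of the chloroplast ATP synthase, which makes ATP from the proton gradient, were lower in roots in nitrate and 4 were in KCl, with medians of -2.59 and -2.47. For atpA, which encodes the alpha subunit of the catalytic head, root signals were 139 and 75.6 in nitrate and 234 and 50.7 in KCl (arrays 2 and 1), against 1316 and 909 in nitrate and 1503 and 1332 in KCl in shoots (arrays 2 and 1). The log2 difference was -3.22 ± 0.56 in nitrate and -3.47 ± 0.56 in KCl (SE; limma, adjusted p = 0.0041 and 0.00284). The gene of the membrane ring subunit, atpH, had root signals of 18.0 and 5.73 in nitrate and 42.9 and 24.1 in KCl (arrays 2 and 1), against 395 and 205 in nitrate and 575 and 142 in KCl in shoots (arrays 2 and 1). Its differences were -3.47 ± 0.60 and -2.65 ± 0.60 (SE; limma, adjusted p = 0.00402 and 0.0143 in nitrate and KCl). The beta and epsilon subunit genes atpB and atpE, which are neighbours and share a transcript, gave nearly the same difference in KCl, -2.29 each.

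The large subunit gene of Rubisco, the enzyme that fixes carbon dioxide, did not pass between organs in this fit either. For rbcL the root signals were 60.4 and 48.0 in nitrate and 93.9 and 39.8 in KCl (arrays 2 and 1), against 389.9 and 85.4 in nitrate and 523 and 91.2 in KCl in shoots (arrays 2 and 1). The root array numbered 2 in KCl was above both shoot arrays numbered 1, so the organs overlapped. The log2 difference was -1.54 ± 0.84 in nitrate and -1.62 ± 0.84 in KCl (SE; limma, adjusted p = 0.254 and 0.222). Within a number it was -2.41 (number 2) and -0.67 (number 1) in nitrate, and -2.29 (number 2) and -0.94 (number 1) in KCl.

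The NDH complex, which returns electrons from ferredoxin to the electron transport chain, had 9 of 11 members lower in roots in nitrate and 8 in KCl, with medians of -2.33 and -2.01. For ndhD, a membrane subunit gene, root signals were 69.9 and 49.1 in nitrate and 133 and 36.0 in KCl (arrays 2 and 1), against 701 and 569 in nitrate and 803 and 519 in KCl in shoots (arrays 2 and 1). Its log2 difference was -3.11 ± 0.45 in nitrate and -2.91 ± 0.45 in KCl (SE; limma, adjusted p = 0.00173 and 0.00248). Next was ndhA, another membrane subunit gene, with root signals of 73.9 and 41.7 in nitrate and 126 and 27.4 in KCl (arrays 2 and 1), against 699 and 334 in nitrate and 769.9 and 354 in KCl in shoots (arrays 2 and 1). The organs did not overlap in it, at log2 differences of -2.80 ± 0.62 and -2.78 ± 0.62 (SE; limma, adjusted p = 0.0127 and 0.0132 in nitrate and KCl). Root signals of ndhJ lay between 0.870 and 1.88, at the bottom of the scale, and its shoot signals between 44.6 and 81.5, so that its root share of 2.02%, the lowest of all members, rests on root signals near background. The members ndhF and ndhH were not called in either treatment.

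Of the 24 members for plastid gene expression 12 were called lower in roots in nitrate and 14 in KCl. Of the 4 subunits of the bacterial-type RNA polymerase of plastids, 1 was called in nitrate and 2 in KCl, with medians of -0.94 and -1.09. The alpha subunit gene rpoA had root signals of 265 and 208 in nitrate and 259 and 220.1 in KCl (arrays 2 and 1), against 544 and 536 in nitrate and 526 and 717 in KCl in shoots (arrays 2 and 1). Its log2 difference was -1.15 ± 0.19 in nitrate and -1.31 ± 0.19 in KCl (SE; limma, adjusted p = 0.00362 and 0.0019), so the organs were apart by little more than 1 log2 unit but with small error. For rpoB, the beta subunit gene, root signals in KCl were 14.6 and 4.33 (arrays 2 and 1), against 27.6 and 29.8 in KCl in shoots (arrays 2 and 1), all of them low, and the log2 difference was -0.84 ± 0.24 (SE; limma, adjusted p = 0.0401). That call of rpoB missed the threshold in 9 of 17 alternatives.

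Among the 20 probe sets for ribosomal proteins, 11 were lower in roots in nitrate and 12 in KCl, with medians of -1.51 and -1.32. The small-subunit gene rps4 had root signals of 73.0 and 51.1 in nitrate and 137 and 45.7 in KCl (arrays 2 and 1), against 433 and 433 in nitrate and 561 and 385 in KCl in shoots (arrays 2 and 1). For rps4 the log2 difference was -2.54 ± 0.40 in nitrate and -2.31 ± 0.40 in KCl (SE; limma, adjusted p = 0.00241 and 0.00388). The duplicated gene rps7 had root signals of 75.1 and 37.6 in nitrate and 76.0 and 26.4 in KCl (arrays 2 and 1), against 222 and 375 in nitrate and 300.3 and 315 in KCl in shoots (arrays 2 and 1), and a log2 difference of -2.37 ± 0.41 in KCl (SE; limma, adjusted p = 0.00416). Also duplicated is rpl23, for a protein of the large subunit, with root signals of 254 and 82.9 in nitrate and 273 and 86.2 in KCl (arrays 2 and 1), against 1073 and 467 in nitrate and 983 and 558 in KCl in shoots (arrays 2 and 1). Its numbers differed strongly in both organs, and its log2 difference of -2.15 ± 0.66 in nitrate (SE; limma, adjusted p = 0.0494) lost the call in 7 of 18 alternatives. At the other end, rps3 kept the highest root share of all members, 55.2% of its shoot signal, and was not called in either treatment.

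Of the 9 other members 6 were called lower in roots in each treatment, with medians of -1.84 in nitrate and -1.42 in KCl. The 2 with the largest differences were cemA, which encodes a protein of the chloroplast envelope, and ccsA, which encodes a protein that attaches heme to cytochromes. Root signals of ccsA were 142 and 144 in nitrate and 180.3 and 84.1 in KCl (arrays 2 and 1), against 828 and 793 in nitrate and 1018 and 671 in KCl in shoots (arrays 2 and 1). Its log2 difference was -2.38 ± 0.32 in nitrate and -2.59 ± 0.32 in KCl (SE; limma, adjusted p = 0.00106 and 0.000705), so it was lower on every root array. The signals of cemA were 99.7 and 86.9 in nitrate and 165 and 37.5 in KCl in roots (arrays 2 and 1), against 843 and 439.8 in nitrate and 921 and 378 in KCl in shoots (arrays 2 and 1), and its differences were -2.52 ± 0.61 and -2.62 ± 0.61 (SE; limma, adjusted p = 0.0198 and 0.0168). Not called in either treatment were accD, for a subunit of the enzyme that starts fatty acid synthesis, and the large open reading frames ycf1 and ycf2.

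**Figure D2:**
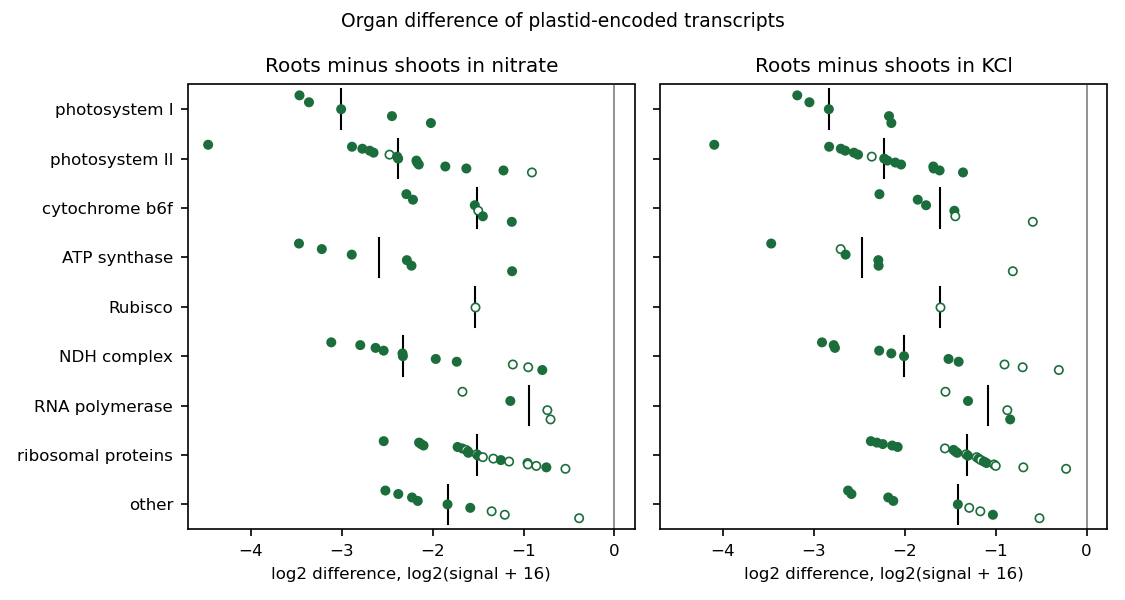
Each point is the log2 difference, roots minus shoots, of 1 probe set in nitrate (left panel) or KCl (right panel), by functional group; filled points passed limma's test at an adjusted p of 0.05, open points did not, and bars mark group medians. Every point lies left of 0, from -4.47 to -0.39 in nitrate and from -4.10 to -0.23 in KCl.

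The median over the 44 members of the photosynthetic complexes, Rubisco included, was -2.29 in nitrate and -2.18 in KCl, and that over the 24 members of gene expression was -1.47 and -1.31. Differences between these groups were not tested. Nuclear genes of photosynthesis gave the outside measure. A list of 57 nuclear photosynthesis genes had 10 on the probe table, where a gene counted only on a probe set listed for it alone. All 10 were called lower in roots in both treatments. Their mean root signal had a median of 3.64% of the mean shoot signal, and ran from 1.27% (LHCB4.2) to 19.0% (NDHN). PSAE1 of photosystem I, for example, had root signals between 36.1 and 42.5 and shoot signals between 1724 and 3312. LHCB4.1, a minor antenna protein gene, had 56.7 to 118 in roots and 2504 to 4181 in shoots. Of the 7 shoot markers only RCA (Rubisco activase) was on the table by the same count, with 108 to 171 in roots and 2492 to 4194 in shoots. The same RCA probe set is also 1 of the 10 above. Of the 7 root markers 3 were on it: the root hair expansin genes EXPA7 and EXPA18 were called higher in roots, and PYK10 was not called.

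The direction of the organ difference was the same on the arrays of each number. Among the arrays numbered 2, all 77 members were lower in roots in nitrate and in KCl. Among those numbered 1 it was 77 in nitrate and 75 in KCl, the exceptions being ndhB and 1 of the rps12 probe sets, both at low signal. Of the 77 members, 52 were called in both treatments and 18 in neither by the fit without a number term. With a replicate block within each organ 15 of these 18 were called lower in both treatments, psbH, rbcL, petG, accD and ycf1 among them, and 1, rpoC2, in KCl alone, while ycf2 and 1 of the rps12 probe sets were called in neither. With 1 replicate block over both organs 12 were called in both treatments and 3 in 1 of them. Over all 22746 probe sets, those called lower rose with this block from 2900 to 3401 in KCl and from 2885 to 3347 in nitrate. Of those 18, 15 were among the members called between the shoot arrays numbered 2 and 1, as were 13 of the 59 called in at least 1 treatment. Of all probe sets 6.25% were called higher and 4.7% lower between those arrays. Without a number term such a difference widens the spread of the organ test, so this overlap is partly built in and is no separate result. Leaving out any 1 array lowered the number of members called in each treatment, most of all the root array numbered 1 of that treatment. No share over all probe sets is given for these fits, and whether the loss is particular to the members was not tested.

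Nitrate was compared with KCl to ask whether plastid transcripts respond within the 20 min that suffice for nuclear nitrate-responsive genes. No member was called in roots, where 0.523% of all probe sets were called higher and 0.0264% lower. None was called in shoots either, where 0.044% were called higher and 0.0% lower, and none in the difference between the root and the shoot response, where 0.0132% were called higher and 0.0% lower. At an unadjusted p under 0.05 limma gave 1 member in roots, 1 in shoots and 0 in the difference, beside 4.7%, 3.96% and 3.39% of all probe sets. Under every alternative that was run these counts after adjustment stayed at 0.

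Differences in roots ran from -0.84 (atpH) to 0.59 (rps14) with a median of -0.05, and in shoots from -0.56 (psbN) to 0.85 (ycf3) with a median of -0.02. The 95% interval of a member reached 0.96 on either side at the median, and between 0.33 and 2.17 over the members. These intervals are not adjusted for the number of probe sets, while the calls are. Intervals of rps14 in roots (0.097 to 1.08) and ycf3 in shoots (0.21 to 1.49) excluded 0 without a call. Changes inside those bounds, and some beyond them, were therefore not detectable in this fit. It has no number term, so differences between the arrays numbered 2 and 1 widen its intervals. The median SE over the members was 0.41 in it, beside 0.20 for the number differences in the fit with that term. The gene rps14, for a protein of the small ribosomal subunit, had root signals of 15.9 and 14.8 in nitrate against 3.85 and 5.80 in KCl (arrays 2 and 1 each). These are low signals that did not overlap, and the log2 difference was 0.59 ± 0.21 (SE; limma, adjusted p = 0.811). The assembly factor gene of photosystem I, ycf3, had shoot signals of 53.2 and 94.6 in nitrate against 37.0 and 28.4 in KCl (arrays 2 and 1 each), a log2 difference of 0.85 ± 0.28 (SE; limma, adjusted p = 0.995).

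In the other groups the member with the smallest p was looked at in each organ, and none came near the threshold. In roots atpH had 18.0 and 5.73 in nitrate against 42.9 and 24.1 in KCl (arrays 2 and 1 each), a log2 difference of -0.84 ± 0.60 (SE; limma, adjusted p = 1). The photosystem II gene psbT had 13.1 and 6.67 in nitrate against 30.8 and 9.01 in KCl in roots (arrays 2 and 1 each), and a log2 difference of -0.41 ± 0.34. These are low signals, nitrate arrays lay below the KCl array of the same number, and the treatments overlapped in psbT. Likewise in roots, ndhF, at signals between 2.31 and 11.5, had -0.41 ± 0.37, and accD, at 52.3 and 32.3 in nitrate against 90.4 and 35.3 in KCl (arrays 2 and 1 each), had -0.36 ± 0.54. The polymerase gene rpoC1 had 66.3 and 25.8 in nitrate against 103 and 25.0 in KCl in roots (arrays 2 and 1 each), a log2 difference of -0.25 ± 0.63, and petD, for a subunit of cytochrome b6f, had -0.13 ± 0.26 at signals between 9.0 and 14.1.

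In shoots the smallest p outside ycf3 belonged to ndhB, at 55.9 and 46.5 in nitrate against 39.4 and 24.9 in KCl (arrays 2 and 1 each), which did not overlap. Its log2 difference was 0.49 ± 0.23, and those of rpl20, for a ribosomal protein, and petD were 0.49 ± 0.34 and 0.41 ± 0.26. The shoot signals of rpl20 were 89.1 and 79.3 in nitrate against 78.5 and 37.6 in KCl (arrays 2 and 1 each), those of petD 27.5 and 53.8 against 29.0 and 22.3, and those of atpI, for a membrane subunit of the ATP synthase, 23.9 and 33.3 against 26.5 and 12.5. The treatments overlapped in petD and atpI and just missed each other in rpl20, and atpI had 0.35 ± 0.25. For psaJ the shoot signals were 1271 and 1445 in nitrate against 1308 and 1012 in KCl (arrays 2 and 1 each), with a log2 difference of 0.23 ± 0.48. The limma adjusted p was 1 for each gene of these 2 paragraphs, to 3 digits, apart from rps14 and ycf3. Subtracting the shoot response from the root response, the differences ran from -0.82 (atpH) to 0.71 (psbN), with a median of -0.05 over the members.

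The bounds differed widely between genes. In shoots psbM, for a small subunit of photosystem II, had 2372 and 3045 in nitrate against 3219.9 and 4834 in KCl (arrays 2 and 1 each). Both nitrate arrays lay below both KCl arrays without an overlap, and the log2 difference was -0.55 with a 95% interval from -1.15 to 0.05. For rpoA in shoots it was -0.18 (95% interval -0.63 to 0.27), and for psaB in roots -0.31 (95% interval -1.06 to 0.43). For psbA, by contrast, the interval ran from -2.83 to 1.52 in roots and from -2.45 to 1.89 in shoots, and for rbcL from -2.11 to 1.78 and from -2.19 to 1.70. All of these come from the fit without a number term, in which roots and shoots share 1 spread per probe set.

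Within the arrays of one number the members moved together in opposite ways in roots. Among root arrays numbered 2, nitrate was below KCl for 66 of the 77 members, with a median of -0.32. Among root arrays numbered 1, nitrate was above KCl for 59, with a median of 0.19. Over all probe sets the medians of these differences were -0.03 and -0.02. In shoots the split was milder, with 49 members below KCl among the arrays numbered 2 and 44 above it among those numbered 1. The root array numbered 2 in KCl had the largest summed signal of members of the 4 root arrays and the one numbered 1 in KCl the smallest.

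**Figure D3:**
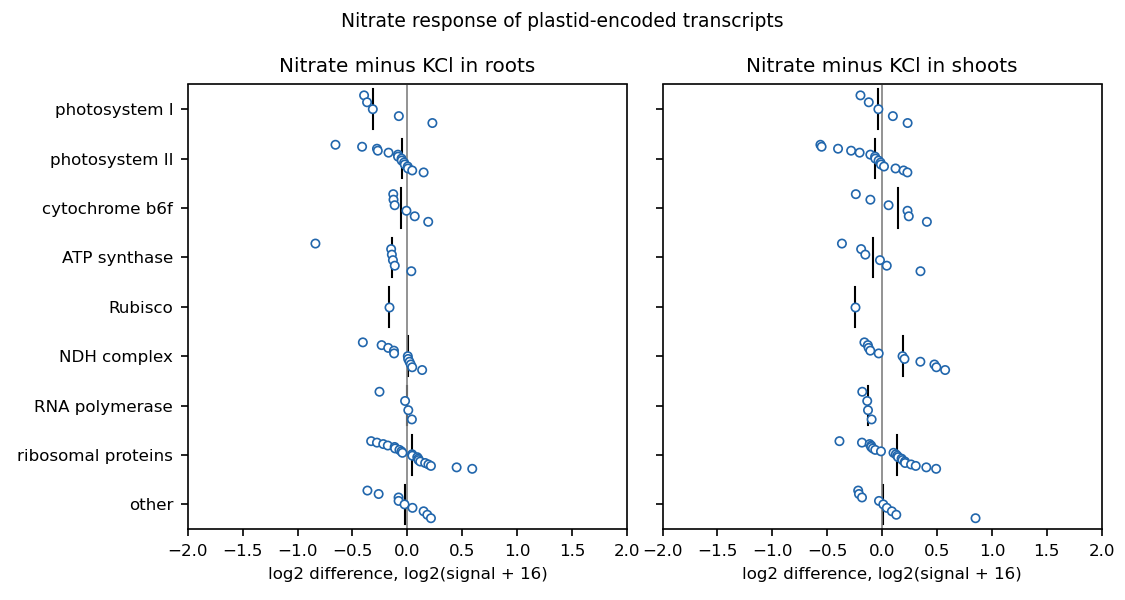
Each point is the log2 difference, nitrate minus KCl, of 1 probe set in roots (left panel) or shoots (right panel), by functional group; bars mark group medians, and all points are open because none passed limma's test. The points scatter around 0, from -0.84 to 0.59 in roots and from -0.56 to 0.85 in shoots.

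The arrays numbered 2 and 1 were compared within each organ. In shoots 26 members were higher on the arrays numbered 2, where 6.25% of all probe sets were called higher, and 2 were lower, where 4.7% of all probe sets were called lower. The 26 included members of every functional group: 2 of photosystem I, 2 of photosystem II, 2 of cytochrome b6f, 2 of the ATP synthase, rbcL, 3 of the NDH complex, 2 of the RNA polymerase, 8 ribosomal protein genes and 4 others. The 2 lower members were psbA and ndhF. In roots 2 members were higher on the arrays numbered 2, psbH and rpl23, where 0.0176% of all probe sets were called higher, and none was lower, where 0.0044% were called lower. All 26 had a positive difference in roots as well, but so had 72 of all 77 members, beside 11321 of all 22746 probe sets. Of the 77 members, 43 were higher on the array numbered 2 in each of the 4 groups, a pattern of 15.3% of all probe sets. None was lower in all 4, which 11.7% of all probe sets were. Both shoot arrays numbered 2 lay above both numbered 1 for 48 members (31.7% of all probe sets) and below them for 6 (22.0%). In roots it was 56 above (21.2% of all probe sets) and 1 below (20.0%).

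The largest rise was that of rbcL. In shoots its signals were 389.9 in nitrate and 523 in KCl at number 2, against 85.4 and 91.2 at number 1. The shoot arrays of the same number were close to each other and far from those of the other number, 5.17-fold on the means, and the log2 difference was 2.17 ± 0.19 (SE; limma, adjusted p = 0.00384). In roots the difference was 0.62 ± 0.19 (SE; limma, adjusted p = 0.357). Its neighbours on the plastid genome did not share the size. The genes atpB and atpE, next to it on the other side, had shoot differences of -0.20 and -0.21, while accD, which follows it, had 1.15 ± 0.17 (SE; limma, adjusted p = 0.0135) and ycf4, a photosystem I assembly factor gene further along, 1.204 ± 0.14 (SE; limma, adjusted p = 0.00779).

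In psbH both organs moved. Its shoot signals were 1115 and 1080.4 at number 2, against 314 and 354 at number 1 (nitrate and KCl). Its root signals were 178 and 242 at number 2, against 46.3 and 43.4 at number 1 (nitrate and KCl). The numbers separated completely in both organs. The log2 difference was 1.67 ± 0.13 in shoots and 1.88 ± 0.13 in roots (SE; limma, adjusted p = 0.00346 and 0.0229), and the root call missed the threshold in 9 of 15 alternatives. Also called in roots was rpl23, with root signals of 254 and 273 at number 2, against 82.9 and 86.2 at number 1 (nitrate and KCl), and a log2 difference of 1.48 ± 0.11 (SE; limma, adjusted p = 0.0229), which 11 of 15 alternatives took above the threshold. Root differences of other groups that missed the threshold were 1.23 ± 0.17 for psaJ, 1.01 ± 0.19 for petB, 0.99 ± 0.18 for atpB, 1.17 ± 0.22 for ndhA, 1.26 ± 0.19 for rpoC1 and 1.17 ± 0.14 for ycf4 (SE; limma, adjusted p between 0.0994 for ycf4 and 0.201 for petB and ndhA).

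Along the genome psbH stands between genes that moved less in shoots, with psbB at 0.37, psbT at 0.01, psbN at 0.65, petB at 0.17 and petD at -0.22, none of them called there.

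In photosystem I, psaC had 299 and 381 in shoots at number 2, against 128 and 134 at number 1 (nitrate and KCl), and a log2 difference of 1.27 ± 0.17 (SE; limma, adjusted p = 0.0098). The reaction-centre gene psaA rose by 1.25 ± 0.16 (SE; limma, adjusted p = 0.00865), while psaB, its neighbour in the same transcription unit, had 0.09 ± 0.19 (SE; limma, adjusted p = 0.797). The same unevenness ran through the ATP synthase genes. There atpF, for a stalk subunit, rose by 1.99 ± 0.31 and atpH by 1.4 ± 0.23 (SE; limma, adjusted p = 0.0137 and 0.0157), and atpA beside them had 0.35 ± 0.24 (SE; limma, adjusted p = 0.395). In the NDH complex ndhH rose by 1.85 ± 0.29 and ndhE by 1.06 ± 0.18 (SE; limma, adjusted p = 0.0144 and 0.0176), and ndhF fell by 0.89 ± 0.20 (SE; limma, adjusted p = 0.0381), a call at low signal that 11 of 14 alternatives ended.

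Genes of ribosomal proteins moved in a block. The neighbouring genes rpl36, rpl14, rpl16, rps3, rpl22 and rps19 were all called higher on the shoot arrays numbered 2, with log2 differences between 1.15 and 1.91. The largest was rpl14, for a protein of the large subunit, with shoot signals of 231 and 226 at number 2, against 48.1 and 50.3 at number 1 (nitrate and KCl). The log2 difference of rpl14 was 1.91 ± 0.19 (SE; limma, adjusted p = 0.00491), and that of rpl16 was 1.83 ± 0.17 (SE; limma, adjusted p = 0.0046). On one side of this block rpoA had -0.21, and on the other side rpl2 had 0.24, neither of them called. The polymerase genes rpoC1 and rpoC2 rose by 1.09 ± 0.19 and 1.17 ± 0.24 (SE; limma, adjusted p = 0.0177 and 0.0282), and rpoB had 0.03 ± 0.20 (SE; limma, adjusted p = 0.946).

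In shoots psbA was the lowest of the 12 members with a negative difference. Its signals were 254 and 351 at number 2, against 1726 and 1878 at number 1 (nitrate and KCl). The means of the 2 numbers stood at a ratio of 0.168, and the log2 difference was -2.53 ± 0.18 (SE; limma, adjusted p = 0.0024), a call that all 15 alternatives kept. In roots it was -0.06 ± 0.18 (SE; limma, adjusted p = 0.975). The difference between the organs was tested as an interaction and was -2.47 ± 0.25 (SE; limma, adjusted p = 0.0358) for psbA, the only member called in it, where 0.202% of all probe sets were called lower and 0.0352% higher. Next to psbA on the genome, matK, which encodes a splicing factor, had 0.69 ± 0.25 in shoots (SE; limma, adjusted p = 0.123).

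**Figure D4:**
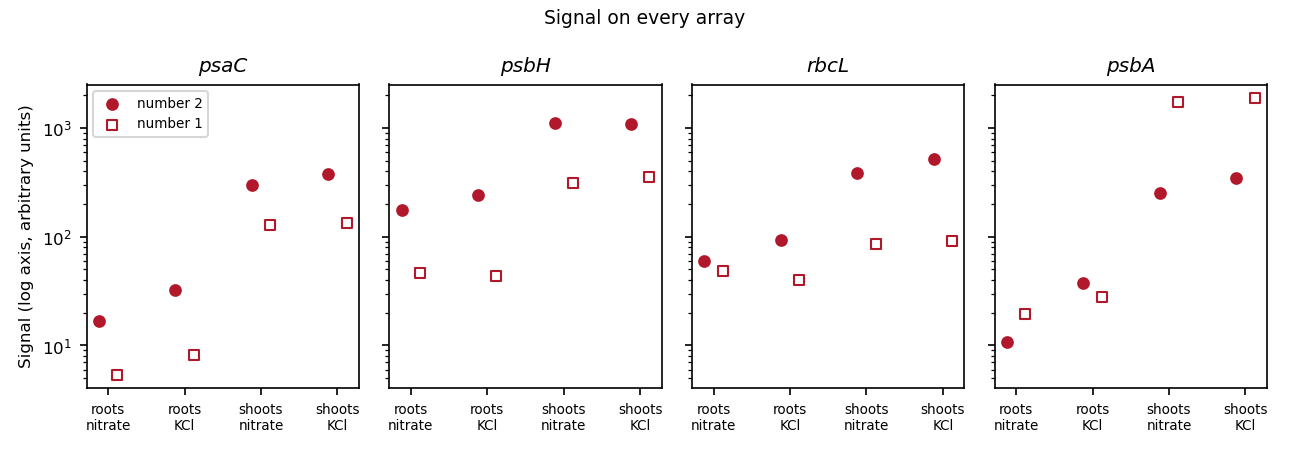
Signals of psaC, psbH, rbcL and psbA on each of the 8 arrays, on a log axis in arbitrary units, with filled circles for the arrays numbered 2 and open squares for those numbered 1. In shoots psaC, psbH and rbcL are higher on number 2 and psbA is lower, at 254 and 351 against 1726 and 1878.

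**Figure D5:**
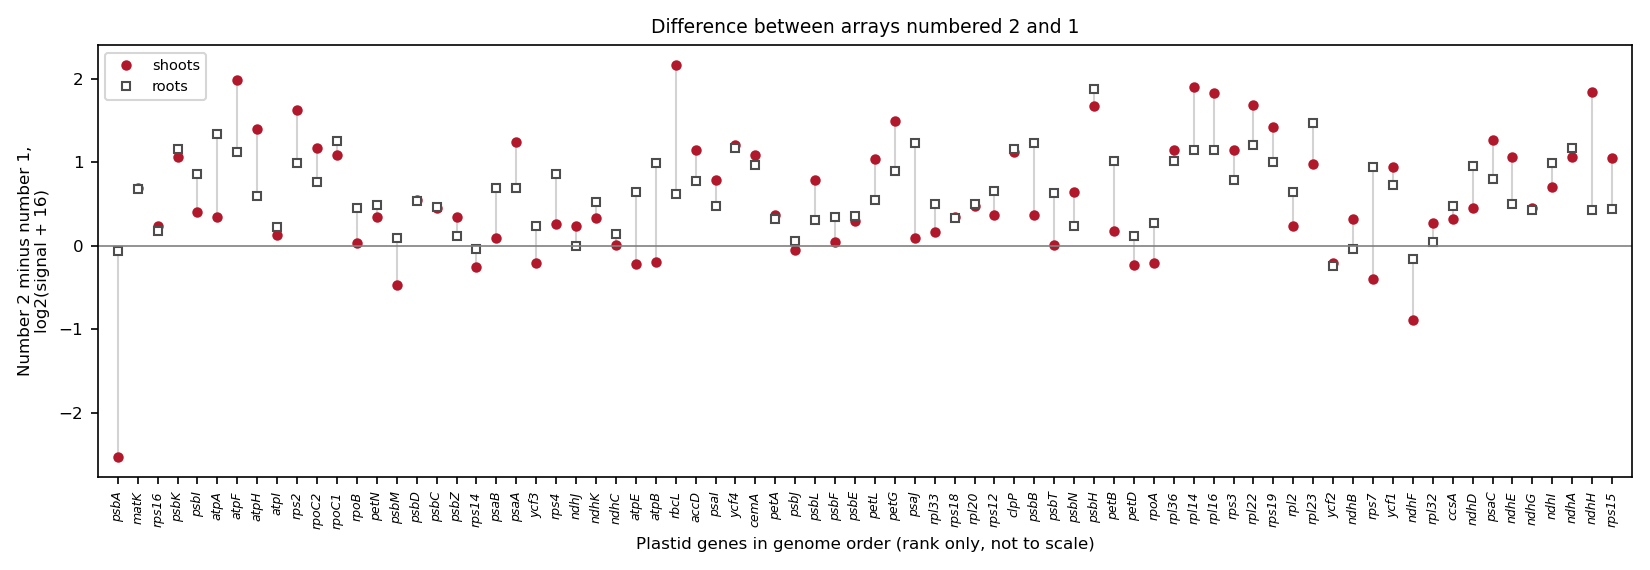
Log2 difference between the arrays numbered 2 and 1 for each plastid gene in genome order (rank, not distance), with filled circles for shoots and open squares for roots. Most points lie above 0, rbcL reaches 2.17 in shoots, and psbA lies lowest, at -2.53 in shoots and near 0 in roots.

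Other measures moved with the number. ICL, the isocitrate lyase gene and the only reserve mobilisation gene on the table, had shoot signals of 111 and 63.2 at number 2 (nitrate and KCl), against 2572 and 3049 at number 1. Of the 10 nuclear photosynthesis genes 9 had a negative shoot difference, with a median of -0.39, and 1 of them, PSAE1, was called, at -0.71 ± 0.12 (SE; limma, adjusted p = 0.019). Median signals over all probe sets were 49.0 and 49.9 on the shoot arrays with number 2, against 42.7 and 44.6 on those with number 1. Of 5 pairs of control probe sets for the 3' and 5' ends of a transcript, 3 had a higher 3' to 5' ratio on both shoot arrays numbered 1, and 1 had a higher ratio on both numbered 2. For the first actin pair this ratio was 4.89 and 4.72 in shoots at number 2, against 9.01 and 10.2 at number 1 (nitrate and KCl). The part of these measures in the differences of the plastid members was not tested. Fewer than the 28 members were called in shoots when any 1 shoot array was left out, and fewest without a KCl array. No share over all probe sets is given for these fits, and whether the loss is particular to the members was not tested.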

How the data were processed

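RNA of 8 samples was hybridised to 1-colour ATH1 arrays. The deposited values are signal intensities, linear, with 1 value for each probe set on each array. The authors made them with MAS5 and GCOS, per the submitters' processing notes, and their versions, scaling target and filters were not stated. Arrays were used as scaled, because the mean after trimming 2% at both ends was equal on all of them.

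The 64 control probe sets were left out. All 22746 others were tested as log2(signal + 16) with lmFit and eBayes (trend) of limma 3.58.1 in R 4.3.3, without a filter, since a filter on the mean would keep members through the organ where they are high; 65 of the 77 members have a mean above the 40th percentile (33.3). One fit of the 4 groups took all 8 arrays (residual degrees of freedom 4, prior 3.64). Number comparisons added a number term per organ (residual degrees of freedom 2, prior 4.92). All tests were two-sided, with Benjamini-Hochberg adjustment over all probe sets and a threshold of 0.05. Gene names came from the platform's probe table, updated to TAIR10.1 records, which also gave the order of genes; no coordinates were used. Members, lists and comparisons were chosen with earlier results of these data known. Named by rule were, in each comparison and group, up to 2 called members with the largest difference in each direction, or else the 1 with the smallest p, and psaC, psbH, rbcL and psbA throughout; other members are named as examples. Of further lists, 1 of 21 genes of plastid transcription (RPOTMP, not called in any comparison), 0 of 16 of plastid RNA processing, 1 of 5 of reserve mobilisation and 0 of 4 of darkness and senescence were on the table. In every list a gene counted only on a probe set listed for it alone. Mitochondrial probe sets were not analysed here as a comparison, having no record in the table. The fits were tested on simulated data. Alternatives covered the pseudocount (1 and 64), quantile or median scaling, the filter, eBayes without a trend, a 2-fold minimum, a replicate block, fewer arrays and each array left out. Figures were drawn with matplotlib 3.10.9.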

Additional observations from a re-analysis of the deposited data

Results flagged for a closer look

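The difference between the arrays numbered 2 and 1 differed between organs for psbA, which encodes the reaction-centre protein D1 of photosystem II. It was -2.53 ± 0.18 in shoots and -0.06 ± 0.18 in roots on the log2 scale, and the interaction of number and organ was -2.47 ± 0.25 (SE; limma, adjusted p = 0.0358). Over 14 alternatives the interaction lay between -2.82 and -2.12, and in 8 of them its adjusted p missed the threshold, with 0.182 as the highest. Root signals of psbA lay between 10.9 and 37.8, near background, which bounds the difference that roots could show.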

How the results depend on the processing

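Apart from leaving out 1 array, 11 alternatives were run for each organ comparison. Over these the number of members called lower in roots lay between 52 and 73 of 77 in KCl. In nitrate it lay between 51 and 74, and none was called higher in any. They include the fits on the arrays of 1 number, in which every group is a lone array. With a replicate block in each organ it was 73 and 74 (17.3% and 17.0% of all probe sets). With 1 replicate block over both it was 71 and 72 (3401 and 3347 of all 22746 probe sets). A block was not taken as a pairing, since only 2 numbers exist and the labels do not tie them to a culture or day. Over all probe sets the number difference in nitrate correlated with that in KCl at 0.288 in roots and 0.496 in shoots (Pearson). Over the 77 members the correlation was higher, at 0.609 in roots and 0.834 in shoots. No call of nitrate against KCl came or went with the block. Fits on the 4 arrays of 1 number, chosen after seeing the data, can give only 1 organ difference for both treatments, with 73 members called at number 2 and 68 at number 1. For the number difference in shoots, eBayes without a trend gave 18. In roots it gave 0, as did a pseudocount of 64 and the root arrays alone, while a pseudocount of 1 gave 8 and the filter on mean signal 19. For the difference between organs, quantile normalization and eBayes without a trend gave 0 and the filter 5. The cause of these shifts was not tested, except that the filter leaves fewer probe sets to adjust over. It also keeps members through the organ where they are high. Apart from the replicate blocks, no share over all probe sets is given for the counts of this paragraph. Whether the shifts are particular to the members was not tested.

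Leaving out 1 array leaves a group with a lone array, assumed to vary like the other groups. No share over all probe sets is given for these fits or for those on 1 number. Whether their gains and losses are particular to the members was not tested. The counts then ran from 29 to 53 (KCl) and 28 to 55 (nitrate) between organs, 0 to 0 for nitrate against KCl, 5 to 32 between numbers in shoots, 0 to 5 in roots and 0 to 1 for the difference between organs. Among the values of members named by rule, only those not called in the comparison at hand changed sign. Other members were not followed for this. With 1 array left out they spanned, for nitrate minus KCl in roots, -0.87 to 0.24 for psaB, -0.86 to 0.039 for psbT, -0.65 to 0.32 for rbcL, -1.03 to 0.52 for rpoC1, -0.89 to 0.16 for accD, -0.87 to 0.13 for psaC and -1.23 to 0.89 for psbH. In shoots they spanned -1.41 to 0.92 for rbcL, -0.40 to 0.038 for rpoA, -0.90 to 0.51 for psaC, -0.95 to 0.83 for psbH and -1.63 to 1.06 for psbA. For the root minus the shoot response they spanned -0.84 to 0.28 for psaB, -1.77 to 0.13 for atpH, -1.09 to 1.24 for rbcL, -0.059 to 0.38 for rpoA, -0.87 to 0.53 for psaC, -1.17 to 0.95 for psbH and -1.72 to 0.97 for psbA. The root number difference of psbA spanned -0.41 to 0.29, and the difference between organs of psbH -0.45 to 0.032. With a pseudocount of 64 the response difference of psaC was 0.015 and the number difference between organs of psbH 0.22, and with a pseudocount of 1 that of psaC was -0.30. Low signals limit what roots can show: 12 of 77 members lie below the 40th percentile of mean signal, and fold changes near background depend on the pseudocount.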
